A study of Homo sapiens with 6 samples.

Results

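The bodies of 489 very long protein-coding genes were examined, out of 19229 protein-coding genes on the autosomes. A gene was a member when its annotated length in GENCODE release 44, in the version for GRCh37, was at least 400 kb, a rule that reads no methylation value. A body ran from 5 kb after the transcription start site to the gene end. The members had a median length of 561 kb and reached 2474 kb in RBFOX1, and their bodies held 2640781 CpGs, each counted once. Whole-genome bisulfite sequencing, which reads methylated cytosines as C and unmethylated ones as T, had been done in 3 Conventional and 3 Reset libraries of H9, an established line of human embryonic stem cells. Conventional cells were grown in FGF/KSR, a medium that contains bFGF at 10 ng/ml and 20% KSR. Reset cells descended from H9 cells carrying doxycycline-inducible NANOG and KLF2, and were then held without doxycycline in t2iL+Gö, which contains 1 μM CHIR99021, 1 μM PD0325901, LIF and 5 μM of the protein kinase C inhibitor Gö6983. Both groups were kept on mouse embryonic fibroblast feeders at 5% oxygen. Only 1 line was used, and the sources do not say whether the 3 Reset libraries came from separate resettings, so each p-value measures the spread between these libraries alone. Expression was not analysed here, so the labelled cell states were not checked against marker genes.

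In mammalian cells most CpGs are methylated, and promoters with many CpGs are the main exception. Gene bodies usually carry methylation at a level that is maintained through replication by DNMT1 and UHRF1 and, in transcribed genes, added by DNMT3B where H3K36me3 lies. Very long genes are mostly introns, are poor in CpGs and often encode adhesion molecules, ion channels and synaptic scaffolds of neurons, and several of them span common fragile sites.

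The libraries held 92023996 to 98004161 CpG calls in the Conventional group and 70329213 to 80199615 in the Reset group. All 489 members passed the minimum of 100 calls in every library, and a body had 5872 to 103047 calls in a library, so that the counting error of a single body was small beside the differences between genes. The median member held 7.10 CpGs per kb against 11.8 in the genes of 20 to 100 kb, with a GC content of 38.8% against 43.3% and an exonic share of 1.58% against 12.6%. Coverage of a body, relative to the autosomes of its library, had a median ratio of Reset to Conventional of 0.931. The ratio was over 1.2 in 4 members, all in the raised first part of chromosome 7 (MAD1L1, the overlapping ENSG00000286192, SDK1 and THSD7A). Among the members, 18 overlapped another member and shared calls with it.

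A sequence from the interior of the longest member shows what a level rests on. It is the intronic 200-bp tile of RBFOX1 nearest to the middle of the body with at least 4 CpGs and at least 10 calls in every library, at chr16:6531403-6531602. It is the plus strand of GRCh37, and the capitals mark the CpGs.
RBFOX1: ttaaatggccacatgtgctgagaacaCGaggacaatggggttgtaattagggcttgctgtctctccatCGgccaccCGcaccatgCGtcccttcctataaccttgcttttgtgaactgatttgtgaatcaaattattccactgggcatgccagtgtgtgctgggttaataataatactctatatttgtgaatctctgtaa
The 4 CpGs of the tile were methylated at 96.9, 100 and 100% in the Conventional libraries and at 9.09, 7.69 and 20.0% in the Reset libraries. All Reset libraries lay below all Conventional libraries, although only 11 to 32 calls stood behind each value.

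The long gene bodies lost 69.8% of their methylation. The mean level over the 489 bodies was 89.0, 89.2 and 89.0% in the Conventional libraries and 26.2, 27.1 and 27.3% in the Reset libraries, or 89.1% ± 0.0974 against 26.9% ± 0.586 (SD, n = 3 each). The groups did not overlap, and the two-sided exact permutation test gave p = 0.10, the smallest that 3 libraries against 3 can give. Each of the 489 bodies fell in a quasi-binomial model of the calls with Benjamini-Hochberg adjustment, where 99.7% of all 14136 genes tested fell and 0.248% rose. The smallest fall of a member was 39.9 points, in GSE1, and the median fall was 62.2 points.

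In points, the levels of the bodies lay close together in Conventional cells and were spread out in Reset cells. Their spread on other scales, such as logits, was not compared. In Conventional cells the bodies had quartiles of 88.1, 89.5 and 90.4% and an SD over genes of 2.21 points. In Reset cells the quartiles were 19.6, 26.6 and 34.3%, the SD was 9.07 points and the highest body, that of MAD1L1, stood at 49.7, 49.6 and 50.6% in the 3 libraries. The median SD of a body between libraries was 0.252 points in Conventional and 0.647 in Reset cells, far under the spread over genes. In Reset cells 52 bodies lay under 15% and 43 lay over 40%. The level of a body in Conventional cells said little about its level in Reset cells (Pearson r = -0.0407 across 489 genes, a description, since genes of a library share its depth and preparation).

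The 10 longest members, most of them neuronal adhesion genes, scaffolds or fragile-site genes, had mean Reset levels from 12.0 to 33.4%, all under the upper quartile of the members. RBFOX1, a neuronal splicing regulator at chr16:5289803-7763342, stood at 88.2, 88.1 and 88.0% in Conventional and 33.0, 33.3 and 33.9% in Reset cells. CNTNAP2, a neurexin-related adhesion protein of axons, stood at 90.5, 90.3 and 90.2% and at 20.0, 20.2 and 20.2%. PTPRD, a receptor phosphatase of synapses, stood at 89.8, 89.9 and 89.7% and at 12.5, 13.6 and 13.4%. The libraries of a group thus lay close together, while these 3 genes did not overlap in any Reset library. DLG2, which encodes a postsynaptic scaffold, had Reset levels of 21.3, 22.0 and 22.0%, and CSMD1, which encodes a large complement-regulating membrane protein, had 11.4, 12.4 and 12.1%. MACROD2, a hydrolase that acts on ADP-ribosylated proteins, had 29.8, 31.2 and 31.0%. CSMD1 held less methylation in Reset cells than any other of the 10, and RBFOX1 held the most. EYS, a protein needed by photoreceptors, had 12.7, 13.3 and 13.4%, LRP1B, a giant receptor of the LDL receptor family, had 21.0, 21.9 and 20.7%, and CTNNA3, an alpha-catenin, had 19.0, 19.7 and 19.5%. PCDH15, a protocadherin of the tip links of hair cells, had 14.6, 15.8 and 15.8%. In Conventional cells all 10 lay between 88.1 and 91.2%.

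Some of the lowest bodies in Reset cells belonged to genes of low CpG density. DPYD, the first enzyme of pyrimidine breakdown at chr1:97543299-98460556, fell from 90.3, 90.4 and 91.0% to 8.16, 9.12 and 8.88% (8.72% ± 0.497, SD, n = 3), and KHDRBS2, an RNA-binding splicing regulator, fell to 8.87, 8.71 and 9.41%. CDH12, a cadherin, fell to 9.36, 9.99 and 9.89%, and PRKD1, a protein kinase of the D family, to 9.55, 9.87 and 9.94%. These 4 bodies held 5.05 to 6.39 CpGs per kb, and their Conventional levels of 88.7 to 91.9% were ordinary for long genes. Neighbours in this order differed by less than their spread between libraries, except KHDRBS2 (9.0% ± 0.367) and CDH12 (9.75% ± 0.341).

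The highest bodies in Reset cells were rich in CpGs. MAD1L1, a component of the spindle checkpoint at chr7:1855429-2272878, fell from 92.4, 92.4 and 92.3% to 49.7, 49.6 and 50.6%, and ENSG00000286192, which overlaps it and shares its calls, to 49.1, 48.7 and 49.9%. Their coverage ratio of Reset to Conventional was 1.53, and its part in these levels was not tested. TBC1D22A, a gene with a TBC domain, fell to 46.3, 46.9 and 47.0% at a coverage ratio of 1.05, DIP2C to 44.5, 44.7 and 45.4% at 0.974, and CAMK1D, a calmodulin-dependent kinase, to 44.6, 44.9 and 45.0% at 1.03. SDK1 and THSD7A, the other members of raised coverage, stood at 34.6 and 10.7% in Reset cells. The 5 highest bodies held 15.9 to 31.0 CpGs per kb.

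A few bodies started lower in Conventional cells, 17 of them under 85%. SLC25A48, a mitochondrial carrier gene, stood at 72.9, 73.6 and 72.5%, and AGBL4, a cytosolic carboxypeptidase that trims glutamates from tubulin, at 74.7, 74.4 and 74.8%. ENSG00000282278 stood at 79.1, 78.5 and 77.0%, UNC13C, a vesicle priming protein of synapses, at 79.4, 79.8 and 78.8%, and GSE1 at 79.5, 79.8 and 79.1%. These bodies differed in how the missing methylation was arranged over windows of 10 kb. In SLC25A48, ENSG00000282278 and GSE1, the lowest windows stood at 22.4, 6.18 and 25.4% in Conventional cells, and 5, 6 and 4 windows lay under 50%. In UNC13C no window lay under 71.6%, so the lower level ran through the whole body, and in AGBL4 1 of 147 windows lay under 50%. In Reset cells these 5 bodies stood at 28.1, 21.2, 35.6, 11.9 and 39.6% in the order named, within the range of the other members.

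Shorter genes of the same CpG density kept more methylation after resetting. Long genes are poorer in CpGs, so the 20 to 100 kb genes were weighted to 10 density classes that hold 48 or 49 long genes each. So weighted, 7361 shorter genes stood at 89.5% ± 0.0803 in Conventional and 32.9% ± 0.654 in Reset cells (SD, n = 3 each), a loss of 63.3%. Long minus shorter genes was -0.418, -0.409 and -0.445 points in the Conventional libraries and -5.88, -6.04 and -5.98 points in the Reset libraries. This difference changed by -5.54 points, without overlap of the groups (two-sided exact permutation test, p = 0.10, the smallest possible). Of the 489 members, 381 lay below the mean of the shorter genes of their class in Reset cells, with CSMD1 farthest below at -25.3 points and MAD1L1 farthest above at 12.6 points.

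**Figure D1:**
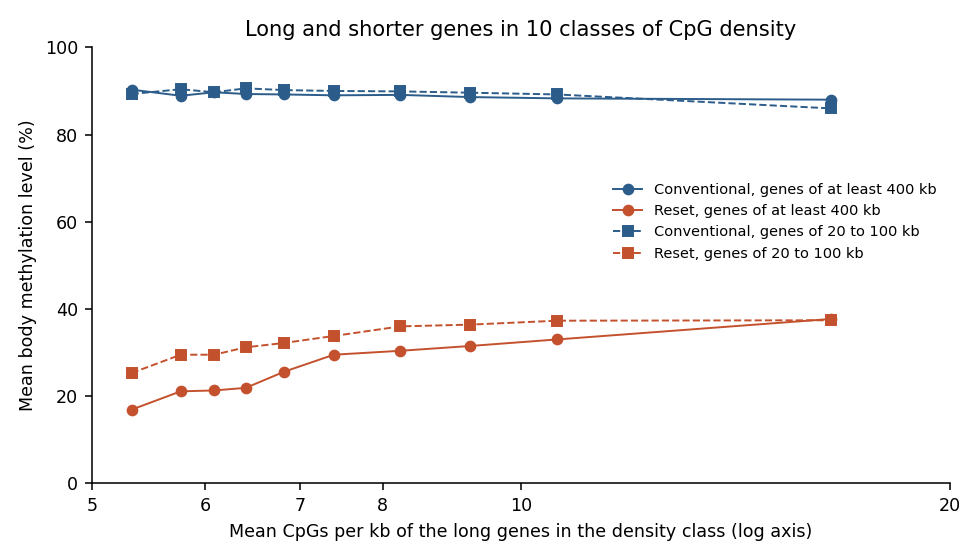
Mean body methylation level (%) against the mean number of CpGs per kb of the long genes in each of 10 density classes (log axis), as the mean of 3 libraries, with long genes as circles on solid lines and genes of 20 to 100 kb as squares on dashed lines. Long minus shorter genes lies between -9.25 and -4.23 points in the first 9 classes of Reset cells and at 0.305 points in the densest, while in Conventional cells it stays between -1.46 and 2.07 points.

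The difference depended on CpG density. In the 4 sparsest classes, from 4.76 to 6.60 CpGs per kb, long minus shorter genes was -8.43, -8.39, -8.23 and -9.25 points in Reset cells. In the classes from 6.60 to 12.0 CpGs per kb it was -6.66 to -4.23 points. In the densest class, from 12.0 to 31.0 CpGs per kb, the long genes stood at 37.7% and the shorter genes at 37.4%, so no deficit was seen there. When calls were compared in 1-kb windows of equal CpG number instead, the Reset difference was -10.7 points in windows of 1 to 5 CpGs, -9.75 in those of 6 to 10, -6.34 in those of 11 to 20, -2.11 in those of 21 to 40 and 1.25 in those of 41 or more. The corresponding Conventional differences lay between -0.766 and -0.186 points. Sparse windows of long genes thus held less methylation than equally sparse windows of shorter genes.

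**Figure D2:**
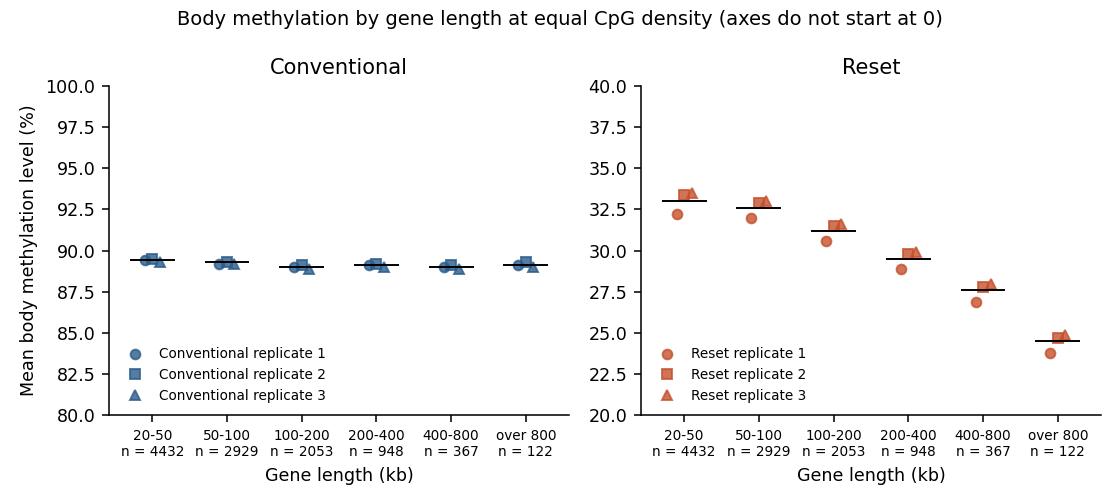
Mean body methylation level (%) of 6 length classes weighted to the CpG density of the long genes, with 1 point per library and a bar at the mean of 3 libraries, and axes that do not start at 0. The Reset level steps down from 33.0% in genes of 20 to 50 kb to 24.5% in those over 800 kb, while the Conventional classes stay between 89.0 and 89.4%.

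The Reset level fell off stepwise with gene length at equal CpG density. The means were 33.0% in genes of 20 to 50 kb, 32.6% at 50 to 100 kb, 31.2% at 100 to 200 kb, 29.5% at 200 to 400 kb, 27.6% at 400 to 800 kb and 24.5% over 800 kb, with SDs between libraries of 0.553 to 0.722 points. The order held in each Reset library, from 32.2 to 23.8% in replicate 1, from 33.4 to 24.7% in replicate 2 and from 33.5 to 24.9% in replicate 3. The first 2 classes differed by less than the SD between libraries. Here CpG density was held equal over quintiles of the long genes, and the smallest quintile in genes over 800 kb held 14 genes. At the limit of 400 kb, BMPR1B, KCNB2 and TRPS1, just inside, stood at 17.2, 20.7 and 32.9% in Reset cells, and NTRK3, LDB2 and DTNA, just outside, at 26.1, 23.6 and 15.9%.

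**Figure D3:**
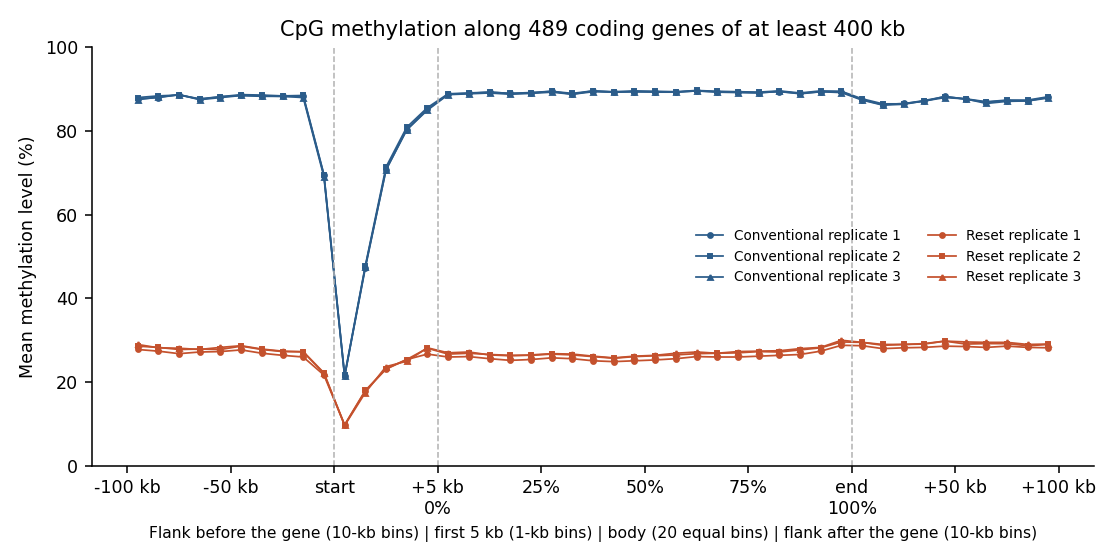
Mean methylation level (%) along the 489 long genes, 1 line per library, over 100 kb of flank in bins of 10 kb, the first 5 kb in bins of 1 kb and the body in 20 equal bins. The Conventional lines dip to 21.4% in the first 1 kb and are level near 89% through the body, and the Reset lines dip to 9.73% and run between 25.4 and 29.4% through the body.

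Along the genes, the body stood above its flank, both sides pooled, in Conventional cells and slightly below it in Reset cells. The flank, 100 kb on each side, stood at 84.8% ± 0.156 in Conventional and 28.0% ± 0.398 in Reset cells (SD, n = 3 each), a loss of 66.9% against 69.8% in the body. Body minus flank was 4.32, 4.20 and 4.31 points in the Conventional libraries and -1.36, -1.08 and -1.01 points in the Reset libraries. The change of -5.43 points had p = 0.10 in the two-sided exact permutation test, with no overlap. Its size depended on CpG-dense stretches, since without the 1-kb windows of over 20 CpGs body minus flank was 0.597 and -2.33 points, a change of -2.93. In the shorter genes weighted to the same body density, body minus flank was 6.18 ± 0.0871 points in Conventional and 3.37 ± 0.288 points in Reset cells. That change of -2.80 keeps the CpG-dense windows and stands against -5.43 in the long genes. No value without these windows is given for shorter genes.

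The profile had a trough at the start and, in Reset cells, a shallow dip inside the body with a rise toward its end. The last 10 kb before the start stood at 69.4% in Conventional and 22.0% in Reset cells, and the first 1 kb of the gene at 21.4 and 9.73%. Body bins lay between 88.8 and 89.6% in Conventional cells. In Reset cells they went from 26.6% in the first bin through 25.4% in the ninth to 29.4% in the last, and the downstream flank went on at 28.6 to 29.4%. The difference between these bins, 25.4% ± 0.495 against 29.4% ± 0.608, was larger than the spread between libraries. The whole upstream flank, at 26.8%, was close to the body in Reset cells, with body minus upstream flank at -0.111, 0.167 and 0.242 points. Body minus downstream flank, at 28.7%, was -2.05, -1.76 and -1.67 points. The upstream flank includes the last 10 kb at 22.0%, and its bins farther out stood at 26.8 to 28.5% in Reset cells. With the nearest 10 kb left out on both sides, body minus flank was -1.58 ± 0.138 points in Reset cells.

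**Figure D4:**
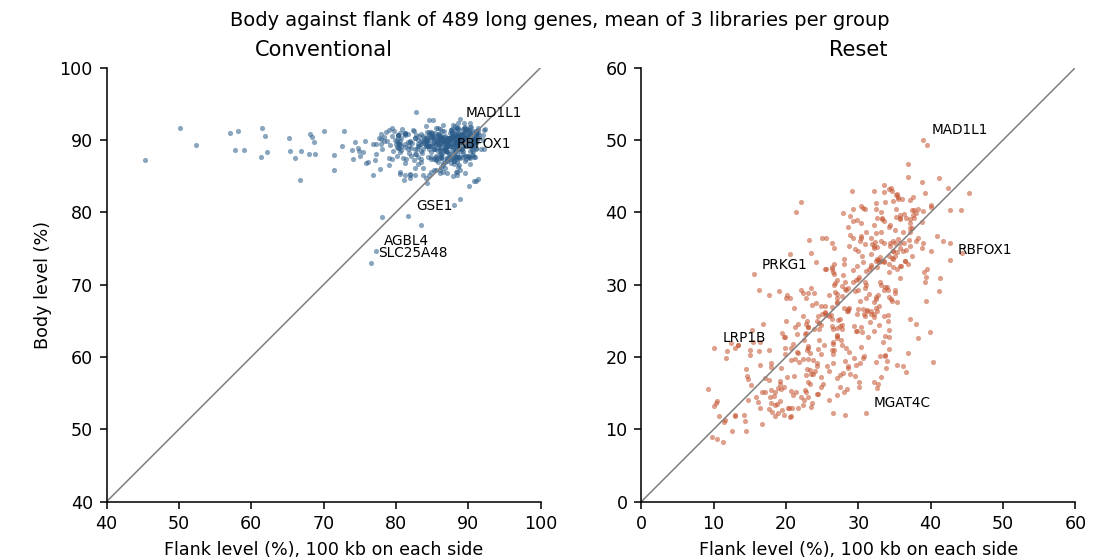
Body level (%) against flank level (%) of each of the 489 long genes, as means of 3 Conventional (left) or 3 Reset (right) libraries, with the line of equality. Conventional bodies crowd near 90% whatever their flank, with 388 above the line, and Reset bodies spread along the line with 219 above it.

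Single genes were compared with their own flank by limma on the log2 ratio of body to flank level. Within Conventional cells the body was higher than the flank in 241 members (49.3%, against 60.2% of all genes tested) and lower in 21 (4.29%, against 8.89%). Within Reset cells it was higher in 190 (38.9%, against 62.3%) and lower in 246 (50.3%, against 21.2%). Between the groups the ratio fell in 272 members (55.6%, against 22.4% of all genes) and rose in 125 (25.6%, against 38.4%). In all of these the libraries of the groups did not overlap, but the same held in members without a call, such as RERE and FAF1. No share without overlap is given for all genes tested, so this cannot be called particular to long genes. The split depends on the scale. On differences of logits 361 members fell and 61 rose, and over all 14136 genes 9604 fell and 1826 rose, where on log2 ratios 3164 fell and 5425 rose. As shares, 73.8% of members against 67.9% of all genes fell on logits and 12.5% against 12.9% rose, so the contrast in shares was small on that scale. The median change on logits was -0.36 against -0.43, so there the typical member fell less against its flank than the typical gene. The body and flank levels of members had r = 0.688 in Reset and 0.102 in Conventional cells, across 489 genes that share libraries.

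The members with the largest fall of the ratio kept a flank of ordinary level beside a nearly emptied body, or had a flank that was already low. MGAT4C, a glycosyltransferase-like gene, had a body of 12.3% beside a flank of 31.1% in Reset cells, and its log2 ratio went from 0.01, 0.01 and 0.02 to -1.33, -1.33 and -1.35 (change -1.35, SE 0.02, limma adjusted p = 5.948e-09). ATRNL1, which resembles attractin, had 12.0% beside 28.2% (change -1.25), and KCNIP4, a subunit that modulates potassium channels, had 12.2% beside 26.5% (change -1.19). SLC25A21, a mitochondrial carrier, and CADPS2, a protein of dense-core vesicle release, are of the second kind. Their Conventional flanks stood at 52.3 and 62.2%, below bodies of 89.3 and 88.3%, and in Reset cells the bodies of 14.7 and 14.1% lay below flanks of 20.9 and 22.5% (changes -1.28 and -1.18). CADPS2 also had a coverage ratio of 0.791, whose part was not tested. The directions of these changes were the same on differences in points and in logits.

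The members with the largest rise of the ratio had flanks lower than their bodies in Reset cells, and 3 of these 5 bodies, those of LRP1B, ANO3 and FBXL7, were themselves under the median of all members, 26.6%. LRP1B stood at 21.2% beside a flank of 10.1% in Reset cells, and its log2 ratio went from 0.05, 0.03 and 0.05 to 1.11, 1.09 and 1.02 (change 1.03, SE 0.03, limma adjusted p = 6.129e-08). PRKG1, the cGMP-dependent kinase, stood at 31.4% beside 15.6% (change 0.91), and SEMA3A, a secreted axon guidance protein, at 29.3% beside 16.2% (change 0.88). ANO3, of the anoctamin family, stood at 15.5% beside 9.23% (change 0.79), and FBXL7, an F-box protein, at 20.8% beside 11.9% (change 0.76). The Conventional flanks of these 5 genes stood between 81.4 and 90.6%. The body levels themselves fell in all 5 genes, by 56.0 to 71.8 points, and the ratios changed in the same direction on differences in points and in logits.

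By role, the members of each list fell in level and differed in what was left. Among 12 cadherin and catenin genes, the homophilic adhesion molecules and their cytoplasmic partners, all 12 fell, their median Reset level was 19.0% and all 12 lay below the shorter genes of their density class. Among 39 genes listed under synaptic and axonal adhesion the median was 22.6% and 37 lay below their class. That list also holds other large membrane proteins, CSMD1, CSMD2, CSMD3 and LRP1B. Among 35 ion channels and neurotransmitter receptors the median was 23.6% with 32 below. The medians of the other lists were 26.3% for 32 genes of kinases, phosphodiesterases and growth factor signalling, a list that also holds other signalling genes such as the DOCK and PLCB families, 27.2% for 16 genes of common fragile sites, 29.2% for 23 transcription factors and cofactors, 31.7% for 28 scaffold and cytoskeleton genes and 32.2% for 6 RNA-binding proteins. Of these, 26 of the 32, 14 of the 16, 20 of the 23, 20 of the 28 and 5 of the 6 lay below their class, against 381 of all 489 members. Over all members the median was 26.6%, and 304 members in no list had 27.6%. All members of these 8 lists fell, as did 99.7% of all genes. Median CpG density also differed between the lists, from 6.33 CpGs per kb in cadherins and catenins and 6.37 in fragile-site genes to 11.1 in RNA-binding genes. Cadherins and catenins were lowest and RNA-binding genes highest in both density and Reset median. Against shorter genes of the same density class, the median deviation of a list ran from -11.6 points in cadherins and catenins to -2.76 points in scaffold and cytoskeleton genes, and the remaining part of density in these differences was not tested.

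Within a list the spread was wide. Among channels and receptors DPP10, a partner of potassium channels, stood at 23.7% ± 0.591 in Reset cells, and the list reached 42.5%. Among transcription factors RUNX1, which directs blood development, stood at 34.6% ± 0.770 and AUTS2 at 34.7% ± 0.424, values that differed by less than the spread between libraries. RBMS3, an RNA-binding protein, stood at 19.6% ± 0.647, well below RBFOX1. Among fragile-site genes DAB1, an adaptor of reelin signalling, stood at 26.6% ± 0.150, and DLG2 at 21.8% ± 0.438. PDE4D, a cAMP phosphodiesterase, stood at 28.0% ± 0.300 in Reset cells (SDs over 3 libraries).

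Inside the bodies the remaining methylation was patchy. In 33247 windows of 10 kb, 95.9% stood over 80% in Conventional cells. In Reset cells 9.91% stood under 10% and 0.975% over 50%, and 30 members held windows of both kinds. The SD over windows within a body had a median of 7.10 points in Reset cells, where counting error alone would give 1.64, and of 4.26 points in Conventional cells against 1.04. PRKG1 had 6 windows under 10% and 6 over 50% among 130, with a range from 5.64 to 58.9%. CSMD1 was low throughout, with 84 of 205 windows under 10% and none over 28.1%.

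Exons and introns changed places in rank. In 467 members with enough exonic calls, exons minus introns of the same bodies was -5.11, -4.80 and -4.80 points in the Conventional libraries and 1.52, 1.30 and 1.61 points in the Reset libraries. The change of 6.38 points had no overlap between groups (two-sided exact permutation test, p = 0.10). The loss was 66.1% in exons and 69.6% in introns. Exons and introns were not matched for CpG density, and the part of density in this contrast was not tested. No such contrast is given for shorter genes, so it cannot be called particular to long ones. Cytosines on the sense and the antisense strand of the genes stood at 26.8 and 27.0% in Reset cells, a difference of -0.183 ± 0.0313 points, and differed by -0.00243 ± 0.0278 points in Conventional cells.

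A small number of short stretches inside these genes ran against the loss. Of 118878 tiles of 300 bp with at least 10 calls in every library, 579 (0.487%) had their 3 Reset values above the 3 Conventional values, and 288 of them, in 111 genes, differed by over 20 points. No share is given for tiles outside these genes, so this share cannot be called particular to long genes. One wholly intronic tile with a very large difference is shown because it was nearly unmethylated in Conventional cells and mostly methylated in Reset cells. It was picked for that difference, so no test is given. It lies in ADGRL2, which encodes an adhesion receptor of the latrophilin family, at chr1:81778932-81779231 and 7.10 kb after the start of the gene, and it holds 3 CpGs.
ADGRL2: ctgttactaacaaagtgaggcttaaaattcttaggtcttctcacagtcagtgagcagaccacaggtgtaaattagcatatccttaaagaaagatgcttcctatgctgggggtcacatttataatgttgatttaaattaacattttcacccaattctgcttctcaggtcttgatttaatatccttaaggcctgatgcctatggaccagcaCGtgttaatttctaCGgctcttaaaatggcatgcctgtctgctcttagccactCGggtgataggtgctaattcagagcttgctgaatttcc
The tile stood at 0, 5.26 and 0% in Conventional and 75.0, 60.9 and 76.9% in Reset cells. With 10 to 23 calls per library the levels are coarse, but the groups lay far apart. The whole body of ADGRL2 fell to 35.0%.

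Coverage inside LINGO2, PARD3 and FHIT was lowered over long stretches in all 3 Reset libraries. Calls were summed in tiles of 50 kb and divided by the autosomal calls of the library, and stretches of at least 3 tiles in a row with a log2 ratio of Reset to Conventional under -0.5 were collected, a search added after the values had been seen. In LINGO2, a leucine-rich repeat protein of neurons, the stretch was 400 kb (chr9:28487615-28887614), with coverage 0.494, 0.492 and 0.478 times the Conventional mean in the Reset libraries and 0.973, 1.00 and 1.02 times in the Conventional libraries. In PARD3, a cell polarity scaffold, it was 250 kb (chr10:34798488-35048487) at 0.585, 0.599 and 0.605, and in FHIT, a classical fragile-site gene, it was 200 kb (chr3:60333003-60533002) at 0.659, 0.602 and 0.688. In the stretches of all 3 genes the Conventional libraries lay between 0.973 and 1.02.

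**Figure D5:**
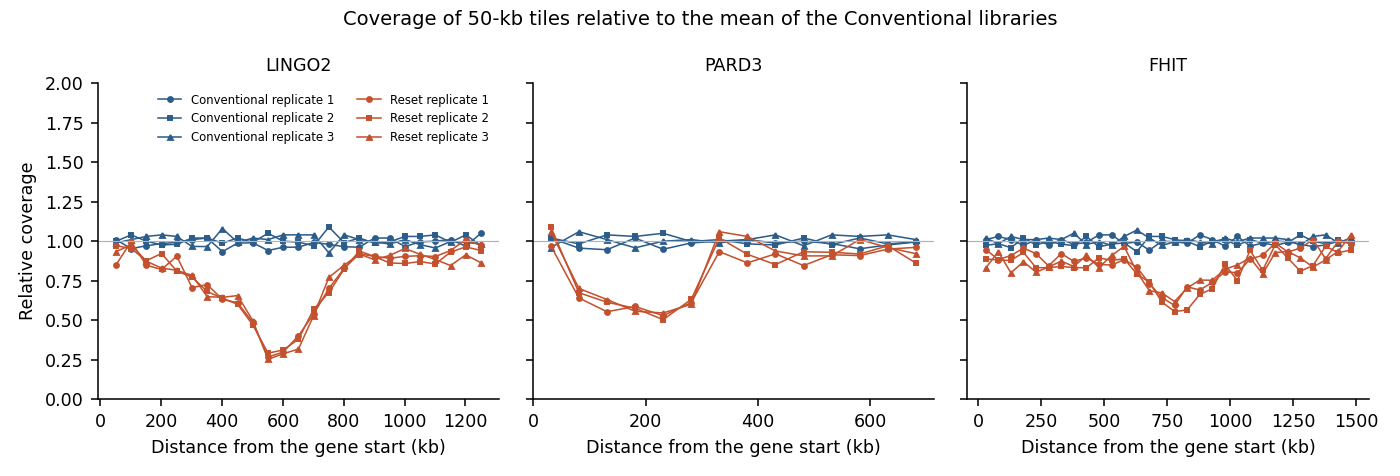
Coverage of 50-kb tiles along LINGO2, PARD3 and FHIT, relative to the mean of the 3 Conventional libraries, against the distance from the gene start (kb), with 1 line per library. The Reset lines of LINGO2 sink to between 0.253 and 0.292 inside the gene and return toward the ends, those of PARD3 and FHIT sink to between 0.504 and 0.618, and the Conventional lines stay near 1.

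The lowered coverage had the shape of a valley rather than of a step in LINGO2. Its lowest tile, 551 kb after the start, had 0.267, 0.292 and 0.253 times the Conventional coverage. The lowest tile of PARD3, at 231 kb, had 0.529, 0.504 and 0.546 times, and that of FHIT, at 779 kb, had 0.594, 0.555 and 0.618 times. Over 53424 tiles of the autosomes, of which 11.7% lay in long genes, the same search found 4 stretches of lowered coverage, all 4 within long genes. It found 6 stretches of raised coverage, all in the first part of chromosome 7. The Reset methylation level inside the stretch was 34.1% ± 1.77 against 27.2% ± 1.41 in the rest of the body in LINGO2, 37.2% ± 1.33 against 39.0% ± 0.963 in PARD3 and 33.6% ± 0.770 against 33.6% ± 0.898 in FHIT. The level was thus higher inside the stretch in LINGO2 and not higher in PARD3 and FHIT. What lowered the coverage was not tested.

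By chromosome, the mean Reset level of long genes ran from 23.3% on chromosome 12 (24 genes) to 39.0% on chromosome 22 (4 genes). Chromosome 22 was also the richest but one in CpGs, with a median of 11.9 per kb in these genes. At equal density the long genes of chromosome 13 stood at -8.51 points from the shorter genes, those of chromosome 17 at -0.861 points and the 4 on chromosome 22 at 1.99 points. Across the 489 genes the Reset level had r = 0.658 with the logarithm of CpG density and r = -0.249 with the logarithm of length, as descriptions.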

How the data were processed

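Whole-genome bisulfite libraries of H9 cells were examined, 3 Conventional and 3 Reset. The authors used Trim Galore for trimming and Bismark (version 0.9.0 per the labels) for mapping to GRCh37. They deposited raw counts of calls with and without methylation for 36871714 to 41502144 cytosines per library, which is not every CpG cytosine. No removal of duplicate reads is named in the sources used here, so counting errors may be understated. Deposited positions were checked to count from 0, and printed ones count from 1.

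Calls were summed per gene body, flank or window and library, and a level is the percentage of methylated calls. Genes came from GENCODE release 44 for GRCh37. A body needed at least 100 calls in every library. Group means were compared by two-sided exact permutation tests, in which 3 libraries against 3 give no p below 0.1. Over 14136 coding genes of at least 10 kb, a quasi-binomial logistic model tested the bodies, the dispersion being squeezed with limma 3.58.1 (R 4.3.3) and kept at 1 or more. Body to flank ratios were tested with limma on log2 ratios, with 0.5 calls added to each count. Benjamini-Hochberg adjusted p-values used a threshold of 0.05. Both tests were tried on simulated data in which few genes changed and the flanks did not. That setting is unlike these data, so the trial does not vouch for the tests here. The search of 300-bp tiles for rises left out chromosome 8. Weights for equal CpG density came from the long genes' deciles, and for the length classes from their quintiles, without random draws. Other steps used Python 3.11.15, numpy 2.4.6 and pandas 2.3.3.

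The members and lists were chosen with earlier results of these data known. Named genes were the 10 longest, the 5 highest and 5 lowest in Reset cells, the 5 lowest in Conventional cells, the 5 largest changes of the ratio in each direction among members past the threshold without overlap of the groups, the 2 longest of each of 8 lists and the 3 on either side of 400 kb. CSMD1 and MAD1L1 as extremes of the density comparison, the genes of changed coverage, and the windows of PRKG1 and CSMD1 were singled out after their values were seen. Some items that these rules named are not reported here. Alternatives changed the libraries, the minimum of calls, the length limit, the body start, the flank, the CpG classes, the test and the scale.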

Additional observations from a re-analysis of the deposited data

How the results depend on the processing

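The fall of the mean body level lay between -64.4 and -60.8 points over 17 alternatives, the change of the gap to shorter genes between -7.03 and -4.47 over 19 and the change of body minus flank between -6.61 and -2.93 over 20, each without change of direction. Leaving out single libraries gave -62.4 to -61.8, -5.58 to -5.51 and -5.50 to -5.32 points. All 489 members fell under all 11 alternatives of that test. The number whose body to flank ratio rose was 125 on log2 ratios, 61 on logits and 76 on differences in points, and the number that fell was 272, 361 and 331. On points 67.7% of members against 46.7% of all genes fell and 15.5% against 18.6% rose. Leaving out single libraries gave 258 to 276 falls and 108 to 130 rises. Without the members of raised coverage, an alternative chosen after seeing the data and run only for level, gap to shorter genes and body minus flank, the changes were -62.2, -5.54 and -5.46 points. Libraries with the same number had correlations of 0.00598, 0.0314 and 0.00624 between their deviations over 14136 genes, so they share only a number, and with a replicate block 271 members fell and 124 rose in ratio and 489 fell in level, while the sign-flip test over 3 pairs gave p = 0.25, its smallest value. At 3 libraries a group no mean could pass 0.05, and tiles of 200 or 300 bp with 10 to 32 calls resolve only large differences.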

Other observations

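The search for stretches of changed coverage also found the raised part of chromosome 7 inside 3 members. MAD1L1 and the overlapping ENSG00000286192 were raised over 400 kb (8 of 8 tiles), with coverage 1.56, 1.52 and 1.5 times the Conventional mean in the Reset libraries, and SDK1 over 350 kb (7 of 19 tiles), with 1.60, 1.48 and 1.45 times. In the SDK1 stretch the Reset level was 39.6% ± 0.324, against 29.9% ± 1.02 in the rest of its body, whose median coverage ratio was itself raised at 1.35, and the Conventional levels were 91.1 and 90.5%. The stretch of SDK1 was chosen for its coverage after the values were seen, and the part of coverage in its level was not tested.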
